A study of Mus musculus with 12 samples.

Results

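Histone transcripts were followed in C2C12, a line of mouse myoblasts that forms multinucleated myotubes in low serum. The genes are H1f0, Hist1h2al, Hist1h2bl, Hist1h3d, Hist2h2bb and Hist2h3c1, taken by symbol from the expression tables, and they are 6 of the 27942 genes analysed. H1f0 encodes a linker histone made independently of DNA replication. The other 5 were taken as its replication-dependent counterparts by symbol, although Hist1h2al is annotated as a pseudogene and lies apart from the other Hist1 genes on chromosome 13. A further 11 genes with a Hist symbol had values and serve as context.

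All cultures reached 80% density with 10% fetal bovine serum before 7 days of differentiation in 2% horse serum. The control group (3 libraries) was untreated, and the other group (3 libraries) received 4-octyl itaconate (OI) at 25 µmol/L, an itaconate ester that enters cells. The series title names repression of myogenic differentiation by OI as its subject, and the comparison asks how transcript levels differ with and without it. Nothing in the labels says that libraries of a group are separate cultures, so the p-values reflect the spread of these libraries only, and that spread may be technical. A second set of 3 control and 3 OI samples was not analysed here.

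Core histones H2A, H2B, H3 and H4 form the octamer around which DNA is wrapped, and linker histones of the H1 family bind where DNA enters and leaves it. Most core histone genes are replication-dependent: their messages rise in S phase and end in a conserved stem-loop rather than a poly(A) tail. H1f0, also called H1.0, is a replacement linker histone whose message is polyadenylated and independent of replication, and it is known to accumulate in cells that leave the cell cycle and differentiate.

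The 3′ ends of the annotated models are shown first because a stem-loop end and a poly(A) end are not captured alike by every library method. The labels name a TruSeq RNA kit and total RNA; whether polyadenylated RNA was selected is not stated in these sources. Sequences are from the GENCODE M21 transcripts (GRCm38, the assembly also called mm10), 5′ to 3′ on the gene's strand, 30 bases each. Capitals mark the stem-loop motif in 2 of them, the poly(A) signal in 2 and the stop codon in 2.
H1f0 poly(A) signal, chr15:79030471-79030500 (+): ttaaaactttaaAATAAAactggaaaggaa
Hist2h3c1 poly(A) signal, chr3:96248475-96248504 (+): ttttttaatcccAATAAAaatttaacacac
Hist2h3c1 stem-loop, chr3:96247320-96247349 (+): ccacaaaGGCTCTTTTCAGAGCCaccacag
Hist1h3d stem-loop, chr13:23576237-23576266 (+): ccccaaaGGCTCTTTTCAGAGCCacccccg
Hist2h2bb coding end, chr3:96270103-96270132 (+): gccgtcaccaagtacaccagctccaagTGA
Hist1h2bl coding end, chr13:21715763-21715792 (-): gcagtcaccaagtacaccagctccaagTGA

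The H1f0 transcript is 2055 bases long with 194 codons, and 1198 bases follow its stop codon. Its AATAAA lies 16 bases before the annotated end, and the stem-loop motif was not found in the 100 bases after the stop codon. Gm49544, an antisense gene on the opposite strand that was not analysed here, shares 163 of the 2055 bases of H1f0. The strand setting of the counting is not given, so reads of that stretch may not be told apart. The H3 genes, Hist1h3d and Hist2h3c1, carry the stem-loop 31 and 30 bases after the stop codon, with the same 16 letters, yet their models run on for 752 and 1167 bases beyond it. The longer Hist2h3c1 model then ends with a poly(A) signal 17 bases before its end, whereas no AATAAA or ATTAAA was found in the last 50 bases of Hist1h3d. RefSeq draws both genes far shorter on the same assembly. Its H3c4 (Hist1h3d) ends at position 23576266 of chromosome 13, the last base of the stem-loop stretch printed above, and spans 504 bases against 1249. Its H3c14 (Hist2h3c1) ends at position 96247348 of chromosome 3 and spans 664 bases against 1825.

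Both H2B models, Hist1h2bl and Hist2h2bb, are 381 bases long and end at the stop codon, so their 3′ flank lies outside the length the values were scaled to. Hist1h2al, at chr13:51202727-51203065 (minus strand, 339 bases), is annotated as a processed pseudogene with no coding region, and RefSeq calls it H2af-ps2, a transcribed pseudogene. The stem-loop was searched as GGNNNTTNTNAGNNCC on the transcript strand in the 100 bases after the stop codon. It was found in 55 of 40208 protein-coding transcripts (0.137%) and in 28 of the 35 transcripts of Hist genes that have such a window. AATAAA or ATTAAA lay in the last 50 bases of 66.6% of 42836 protein-coding transcripts and of 20 of 55 transcripts of Hist genes. A match describes letters only.

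**Figure D1:**
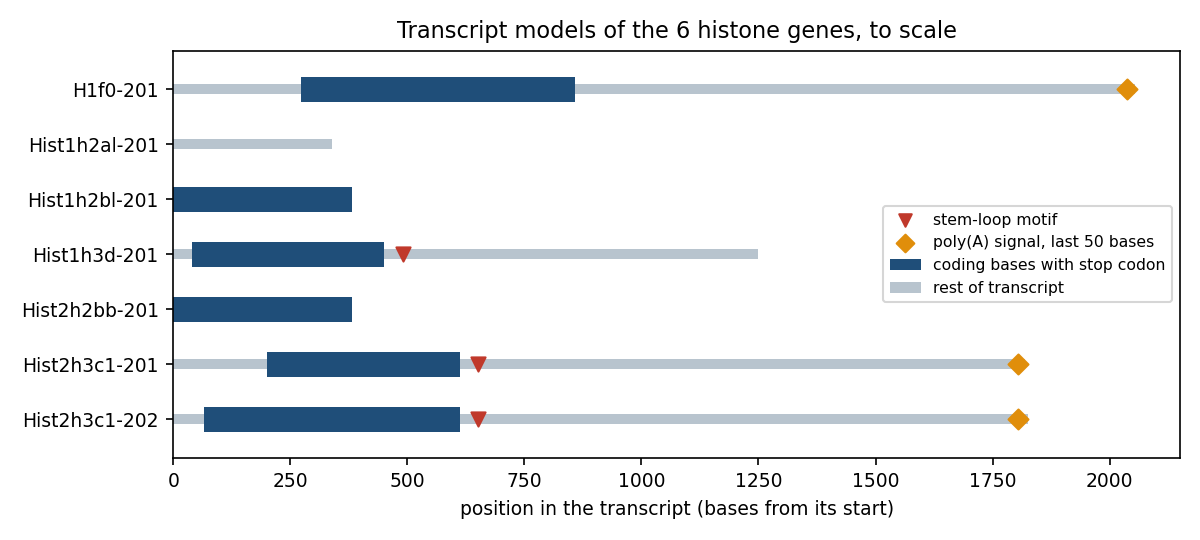
Annotated transcripts of the 6 histone genes, drawn to scale in bases from the transcript start, with coding bases as thick bars and the rest as thin bars. The stem-loop (triangle) sits just after the coding bases of Hist1h3d and Hist2h3c1, while H1f0 and Hist2h3c1 end with a poly(A) signal (diamond) and the H2B models end at the stop codon.

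The deposited unit is FPKM, in which fragments are divided by gene length and by library size. Library sizes recovered from them ran from 24441000 to 36274000, and read numbers below come from the same recovery. Control replicate 1 stood apart: the genes analysed took 23.9% of its library against 5.25% to 5.77% in the others. The abundant non-coding RNA AY036118 took 6.53% of this library against 0.0638% to 0.226% of the others. Malat1, also non-coding, was at 1769 FPKM against 312 to 429. The small RNA polymerase III transcripts Rn7s1, Rn7s2, Rmrp and Rpph1 were far above their level elsewhere as well (Rn7s1 480 FPKM against 8.11 to 11.8). The fold changes and ratios of the tested histone genes are therefore also given without control replicate 1. The muscle label was checked with 19 markers, of which 2 had values: Tnnc1, slow troponin C, and H19, a non-coding RNA of differentiating muscle. Tnnc1 was present in every library and fell from 126 ± 15.1 to 23.2 ± 1.39 FPKM (SD, n = 3), which is -2.39 on the log2 scale (limma, adjusted p = 0.000188). H19 fell from 133 ± 2.95 to 27.4 ± 4.20 FPKM (limma, adjusted p = 0.000230). Markers of fibroblasts, adipocytes, smooth muscle, endothelium and macrophages had no values here. A gene without a value was not among the genes analysed, which is not a measured 0. Ranks and shares of genes called likewise cover only the genes analysed. In these bulk libraries fewer cells of a type and less RNA per cell cannot be told apart, and the part of the muscle marker fall in the histone results was not tested.

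H1f0 was the most abundant of the 6 in every library and was lower with OI. Its level was 146, 148 and 155 FPKM in control replicates 1, 2 and 3 (7316, 9310 and 9531 reads) and 111, 116 and 112 FPKM in OI replicates 1, 2 and 3 (7354, 8640 and 5918 reads). The groups did not overlap, and the 6 libraries formed a high and a low cluster of 3. The group means were 150 ± 4.59 and 113 ± 2.42 FPKM (SD, n = 3). Its log2 fold change, OI against control, was -0.40 ± 0.061 (SE; 95% interval -0.55 to -0.25), a fold of 0.758, on the log2(FPKM + 1) scale used throughout, which understates changes of low genes. It passed the threshold of 0.05 in limma's test with Benjamini-Hochberg adjustment over the 1737 genes tested (adjusted p = 0.0268).

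Counting error was small beside this difference. The 95% Poisson interval of the lowest control library ran from 142 to 149 FPKM and that of the highest OI library from 113 to 118, and such intervals cover counting error only. H1f0 ranked between 37 and 49 by level among the tested genes in every library. Without control replicate 1 the log2 fold change was -0.42. Leaving any 1 library out of this fit gave an adjusted p between 0.0676 and 0.125. The log2 fold change then lay between -0.42 and -0.38. In this fit the call thus needs all 6 libraries, while omissions hardly move the size. Omissions under the other settings were not run. The call was also lost under 2 other scalings of the libraries, to -0.33 with median-of-ratios scaling (adjusted p = 0.237) and to -0.18 with quantile normalization (adjusted p = 0.457), and at the same size with no filter (adjusted p = 0.166) or without limma's trend (adjusted p = 0.0587).

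Among the 6 histone genes 1 was called, H1f0, against a background of 2.76% of all genes tested called in either direction and 1.61% called lower. Groups did not overlap for 1 of the 6, against 23.6% of all genes tested. Without control replicate 1 limma called none of the 6, where it called 1.38% of all genes, and 2 of the 6 (H1f0 and Hist1h2al) had an unadjusted p under 0.05. Of the 6, 3 were lower and 3 higher with OI, and 4 were lower and 2 higher without control replicate 1. The median of their log2 fold changes was -0.09, beside -0.02 over all genes tested, 55.4% of which were lower.

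**Figure D2:**
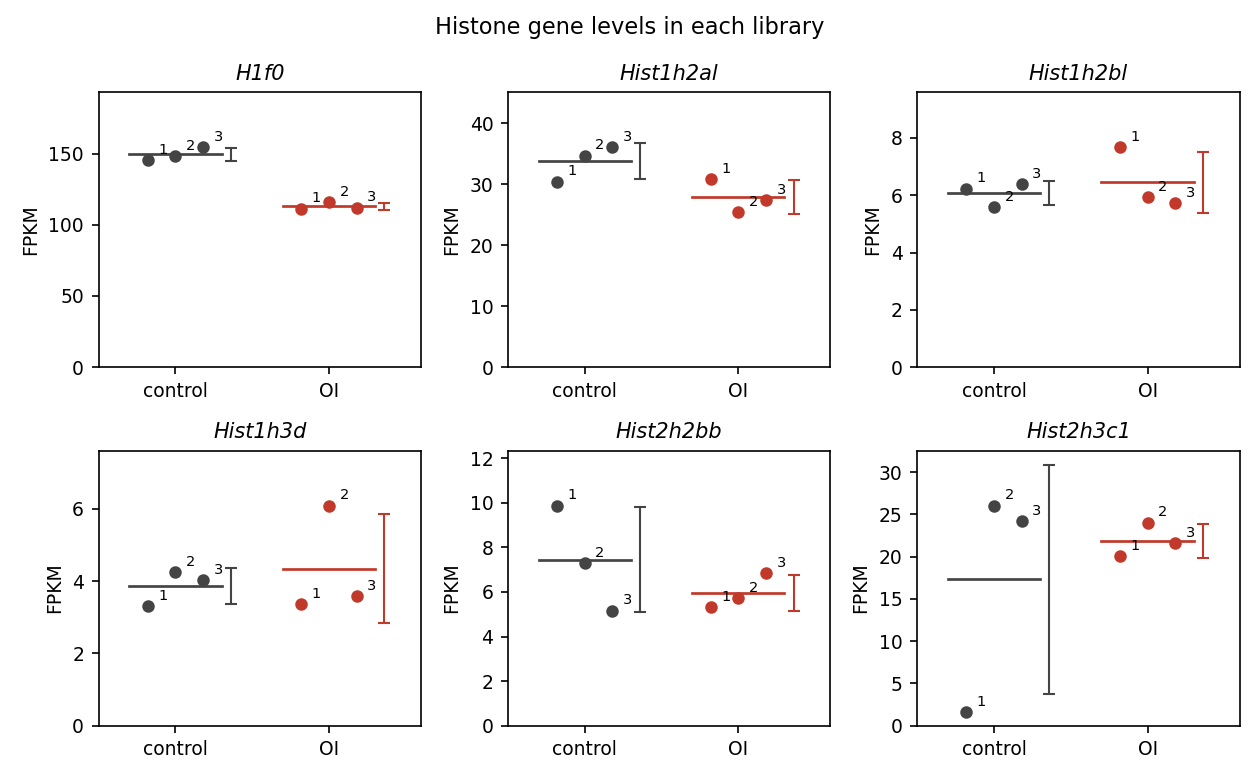
FPKM of each histone gene in the 3 control and 3 OI libraries, each panel from 0 with its own scale; numbers are replicates, horizontal lines are means and bars are SDs. H1f0 separates the groups at 146 to 155 against 111 to 116, and Hist2h3c1 is at 1.64 in control replicate 1 and at 20.1 or more in the other 5 libraries.

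The H3 genes encode the core histone whose tail carries many regulatory marks, and their coding regions are near copies: the transcripts are 95.3% identical over 403 bases. Hist2h3c1 (chr3:96246685-96248509, plus strand) was at 1.64, 26.0 and 24.2 FPKM in control replicates 1, 2 and 3 and at 20.1, 24.0 and 21.6 FPKM in OI replicates 1, 2 and 3. In reads this was 73, 1451 and 1326 against 1176, 1591 and 1011. Control replicate 1 alone was low, and the other 5 libraries lay close together, with a median 14.7 times its value. Its 95% Poisson interval, 1.28 to 2.06 FPKM, did not reach any other library.

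Measured as log2(FPKM + 1) minus the mean of the other 5 libraries, Hist2h3c1 in control replicate 1 was at -3.19, the lowest of the 1737 genes tested in that library. With it the group means were 17.3 ± 13.6 and 21.9 ± 2.01 FPKM (SD, n = 3) and the log2 fold change was 0.91 ± 0.89 (SE; limma, adjusted p = 0.659; 95% interval -1.24 to 3.06). Without it the control mean was 25.1 FPKM and the log2 fold change -0.19 (95% interval -0.46 to 0.07; limma, adjusted p = 0.440). The sign of this gene's change thus rests on 1 library. A neighbouring antisense gene 305 bases away, Gm20633, was at 11.4 FPKM in control replicate 1 and at 10.1 to 13.8 in the others, so the low value was not shared by it. Another annotated gene on the same strand, Gm20634, covers all 1825 bases of Hist2h3c1 and was not analysed here, so how reads were divided between them is unknown.

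Hist1h3d (chr13:23575763-23577011, plus strand) was at 3.31, 4.25 and 4.03 FPKM in control replicates 1, 2 and 3 and at 3.36, 6.09 and 3.58 FPKM in OI replicates 1, 2 and 3. OI replicate 2 was high, with 276 reads where the other 5 libraries had 101 to 162, and its Poisson interval of 5.39 to 6.85 FPKM lay above those of the other 5. The remaining OI libraries lay within the control range. The log2 fold change was 0.11 ± 0.20 (SE; limma, adjusted p = 0.850; 95% interval -0.39 to 0.60). It was 0.02 without control replicate 1 and -0.12 without OI replicate 2.

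The H2B genes are short and gave few reads. Hist2h2bb (chr3:96269752-96270132, plus strand) was at 9.88, 7.31 and 5.16 FPKM in control replicates 1, 2 and 3 (92, 85 and 59 reads) and at 5.31, 5.72 and 6.85 FPKM in OI replicates 1, 2 and 3 (65, 79 and 67 reads). The highest value was in control replicate 1, the library where Hist2h3c1 was lowest, and the groups overlapped. The log2 fold change was -0.25 ± 0.21 (SE; limma, adjusted p = 0.613; 95% interval -0.77 to 0.27). It was -0.05 without control replicate 1 and -0.46 without control replicate 3, so its size rests on these libraries. Its 381 bases are all shared with Gm20628 on the opposite strand, which was at 2.13 FPKM on average in control and 2.04 in OI, and 226 of them with Gm42743, a long intergenic RNA on the same strand that was not analysed here. No source used here gives the strand setting of the counting, so reads of these genes may not be told apart.

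Hist1h2bl (chr13:21715763-21716143, minus strand) was the steadiest of the low genes, at 6.23, 5.59 and 6.39 FPKM in control replicates 1, 2 and 3 and at 7.68, 5.93 and 5.72 FPKM in OI replicates 1, 2 and 3. OI replicate 1 was the highest, and the other OI libraries lay among the controls. The log2 fold change was 0.07 ± 0.12 (SE; limma, adjusted p = 0.838; 95% interval -0.22 to 0.36). It was 0.08 without control replicate 1 and -0.05 without OI replicate 1. Its 56 to 94 reads per library must be read with its copies in view: 17 other genes have transcripts at least 90% identical to it over at least 80% of its length, the closest being Hist1h2bq at 98.95%. The H2B pair itself is less alike, at 88.7% identity.

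Hist1h2al, named for the core histone H2A, was second by FPKM in every library. This rank rests on its GENCODE length of 339 bases, where RefSeq gives H2af-ps2 a span of 2983. By reads, Hist2h3c1 was ahead of it outside control replicate 1, at 1011 to 1591 against 238 to 367. Hist1h2al was at 30.4, 34.7 and 36.1 FPKM in control replicates 1, 2 and 3 (252, 359 and 367 reads) and at 30.9, 25.4 and 27.3 FPKM in OI replicates 1, 2 and 3 (336, 312 and 238 reads). Control replicate 1 fell just below OI replicate 1, so the groups overlapped. The means were 33.7 ± 2.96 and 27.9 ± 2.78 FPKM (SD, n = 3), with a log2 fold change of -0.27 ± 0.10 (SE; 95% interval -0.52 to -0.02). This did not pass after adjustment (limma, unadjusted p = 0.0396, adjusted p = 0.258), nor without control replicate 1, where it was -0.34 (limma, adjusted p = 0.221).

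The Hist1h2al value is also uncertain in origin. In all 21 genes meet the 90% identity and 80% length limits against its 339 bases, and the closest, Gm20632, which lies near Hist2h3c1, is 99.4% identical. Gm20632 itself averaged 20.1 FPKM in control and 17.8 in OI. A miRNA gene on the opposite strand, Gm44341, shares 109 of its bases. No source used here says how shared reads were assigned.

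**Figure D3:**
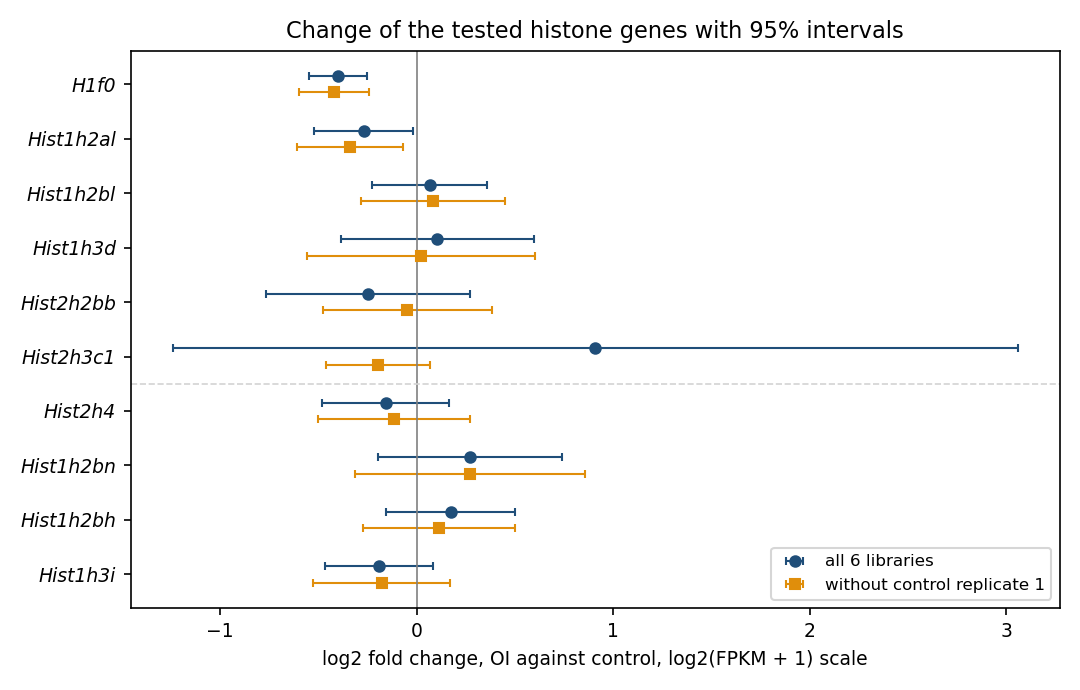
Log2 fold changes, OI against control, with 95% intervals for the 6 histone genes (above the dashed line) and 4 other tested Hist genes, from all 6 libraries (circles) and without control replicate 1 (squares). The H1f0 and Hist1h2al intervals stay below 0 in both, and the Hist2h3c1 estimate moves from 0.91 to -0.19. The intervals are not adjusted for the number of genes tested.

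H1f0 was set against each of the other 5 genes within each library, which removes differences in library scaling apart from the pseudocount. The exact two-sided permutation test over 3 against 3 libraries cannot give less than 0.1, so no single ratio could pass 0.05. Against Hist1h2bl the log2 ratio was 4.34, 4.50 and 4.40 in control replicates 1, 2 and 3 and 3.69, 4.08 and 4.07 in OI replicates 1, 2 and 3. Every OI library was below every control library, with a difference of -0.47 (exact permutation p = 0.1, Benjamini-Hochberg over 5 ratios 0.167) that was -0.50 without control replicate 1. Against Hist1h3d the ratio was 5.09, 4.83 and 4.95 in control and 4.69, 4.04 and 4.62 in OI, again without overlap, with a difference of -0.51 (exact permutation p = 0.1, adjusted 0.167). That difference was -0.44 without control replicate 1 and -0.30 without OI replicate 2.

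Against Hist2h3c1 the ratio was 5.80, 2.47 and 2.63 in control replicates 1, 2 and 3 and 2.42, 2.22 and 2.33 in OI replicates 1, 2 and 3. The groups did not overlap, but the difference of -1.31 came to -0.22 without control replicate 1 (exact permutation p = 0.1 and adjusted 0.167 with all 6). Against Hist2h2bb the groups overlapped and the difference was -0.15 (exact permutation p = 0.7). It was -0.37 without control replicate 1 and 0.08 without control replicate 3. Against Hist1h2al they overlapped as well, with a difference of -0.13 (exact permutation p = 0.4). It was -0.079 without control replicate 1, -0.046 without OI replicate 1 and -0.21 without OI replicate 2. H1f0 relative to Hist1h2bl, Hist1h3d and Hist2h3c1 was thus lower in each OI library than in each control library. Relative to Hist1h2al and Hist2h2bb it was not. H1f0 alone also separated the groups, and how often its ratio to other tested genes did so was not counted.

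**Figure D4:**
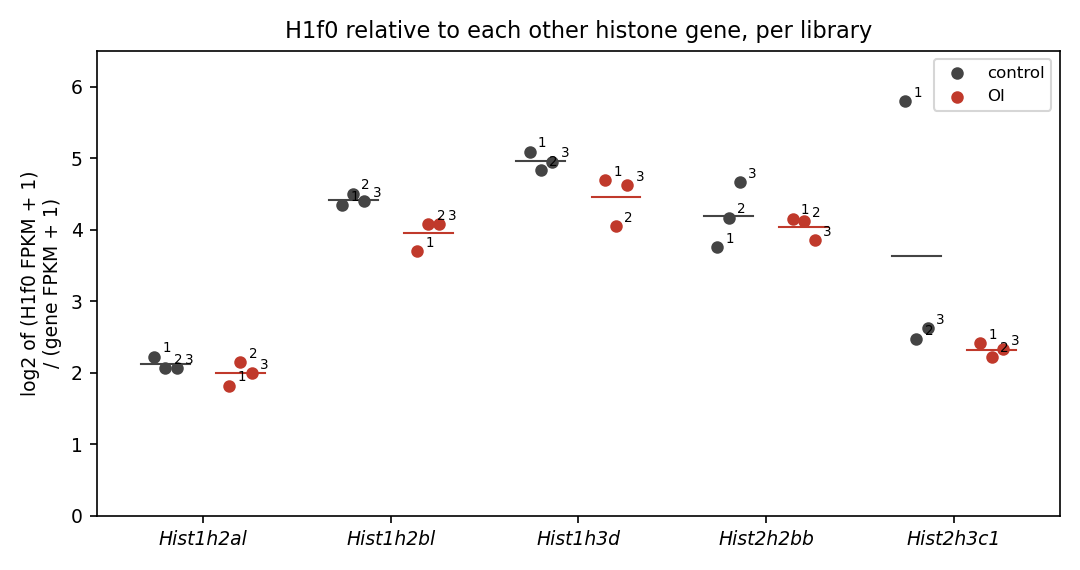
Log2 ratio of H1f0 to each other histone gene, (FPKM + 1) over (FPKM + 1), per library; numbers are replicates and lines are group means. Control and OI libraries do not overlap for Hist1h2bl, Hist1h3d and Hist2h3c1, and the high Hist2h3c1 point at 5.80 is control replicate 1. The groups do not overlap for H1f0 alone either.

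By level per length, H1f0 made up 73.9%, 65.6% and 67.1% of the summed FPKM of the 6 genes in control replicates 1, 2 and 3 and 62.3%, 63.3% and 63.3% in OI replicates 1, 2 and 3. The sum of the other 5 was 51.5, 77.9 and 75.9 FPKM in control and 67.3, 67.1 and 65.1 in OI, with the low control value again that of replicate 1. By FPKM the order H1f0, Hist1h2al, Hist2h3c1 held in 5 of 6 libraries, and in control replicate 1 Hist2h3c1 came last. Shares and orders rest on the GENCODE lengths, which differ widely from the RefSeq spans for Hist1h2al and the H3 genes. The order of Hist2h2bb, Hist1h2bl and Hist1h3d changed between libraries, with Hist1h3d the lowest of these in every library but OI replicate 2. In control its libraries all lay below those of Hist1h2bl and Hist2h2bb, whose levels overlapped each other.

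Spread between libraries differed from gene to gene. The coefficient of variation of H1f0 was 3.07% in control and 2.14% in OI, and for Hist1h2bl it was 6.96% and 16.7%, where counting alone gives 11.8% at its mean read number. For Hist1h3d it was 12.7% and 34.8% against 7.99% from counting, and for Hist2h2bb 31.7% and 13.4% against 11.6%. The most extreme library was control replicate 1 for both Hist2h3c1 and Hist2h2bb, OI replicate 2 for Hist1h3d and OI replicate 1 for Hist1h2bl. For Hist1h2bl the 95% Poisson interval of OI replicate 1, 6.21 to 9.40 FPKM, overlapped that of every other library.

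**Figure D5:**
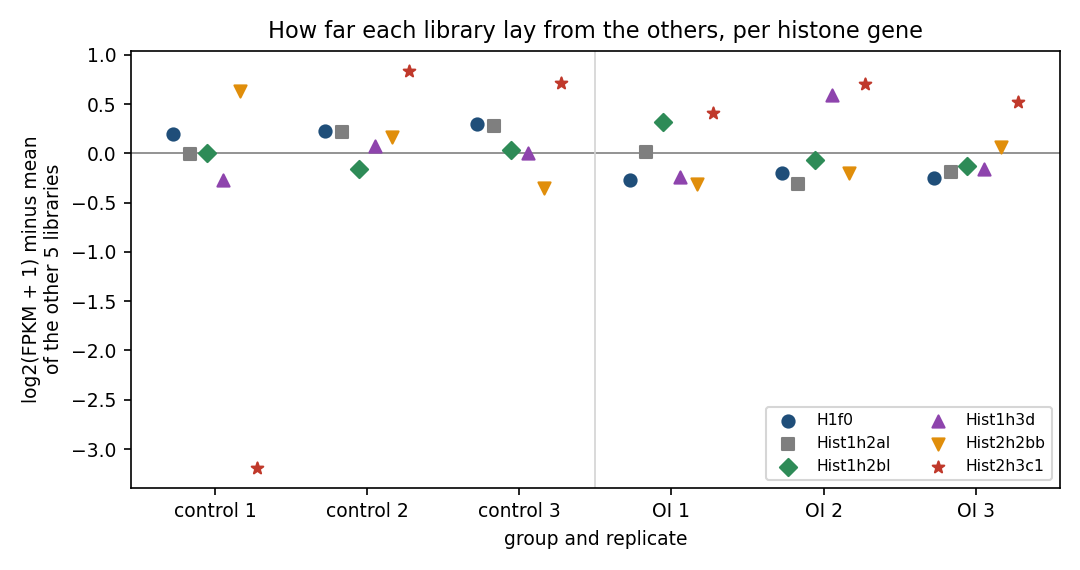
Log2(FPKM + 1) of each histone gene in each library minus the mean of the other 5 libraries. Hist2h3c1 lies at -3.19 in control replicate 1, and H1f0 is above 0 in all 3 control and below 0 in all 3 OI libraries.

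Of the 11 further Hist genes, 4 were tested, and limma called none of them, with 0 at an unadjusted p under 0.05. Hist2h4, a gene of core histone H4, averaged 4.17 FPKM in control and 3.61 in OI (log2 fold change -0.16, limma, adjusted p = 0.608). Hist1h2bn, an H2B gene, averaged 2.78 and 3.67 FPKM (0.27, limma, adjusted p = 0.532). It was at 2.79, 2.58 and 2.98 FPKM in control replicates 1, 2 and 3 and at 2.53, 4.99 and 3.47 in OI replicates 1, 2 and 3, so OI replicate 2 was its highest library, as for Hist1h3d. Hist1h2bh, an H2B gene as well, averaged 1.20 and 1.49 FPKM (0.17, limma, adjusted p = 0.576), and Hist1h3i, an H3 gene, 1.35 and 1.07 (-0.19, limma, adjusted p = 0.444). Without control replicate 1 the log2 fold changes were -0.11 for Hist2h4, 0.27 for Hist1h2bn, 0.11 for Hist1h2bh and -0.18 for Hist1h3i. Over omissions of 1 library each kept its sign, with Hist1h2bn between 0.07 (without OI replicate 2) and 0.45 (without OI replicate 1), Hist1h2bh between 0.06 (without OI replicate 1) and 0.26, and Hist2h4 between -0.28 (without control replicate 3) and -0.08 (without control replicate 2).

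The remaining 7 Hist genes did not exceed 0.755 FPKM or 27 reads in any library and were not tested. Over the replication-dependent list 16 genes had values, 9 were tested, 5 of these were higher with OI and 0 were called by limma, with 1 (Hist1h2al) at an unadjusted p under 0.05. Hist2h3c1 counts as higher here but was at -0.19 without control replicate 1, and Hist1h2al is annotated as a pseudogene. On recovered reads limma voom called 0 of 11, with 2 at an unadjusted p under 0.05. The other of these, Hist4h4, is an H4 gene and is named here after its values were seen. It had 12, 14 and 12 reads in control replicates 1, 2 and 3 and 8, 4 and 4 in OI replicates 1, 2 and 3 (voom log2 fold change -1.40, adjusted p = 0.263). Of 19 replication-independent histone variant genes only H1f0 was among the genes analysed, so nothing can be said of the others. The U7 small nuclear RNA, Rnu7, which guides 3′ end cleavage of replication-dependent messages, was the 1 of 15 processing genes with values, at 0.445 to 0.660 FPKM and untested. Genes of histone chaperones and of linker histone readers had none.

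The S phase list had 1 gene with values of 26, Cdc45, a factor of the replicative helicase, which averaged 1.82 FPKM in control and 1.80 in OI (log2 fold change -0.01, limma, adjusted p = 0.971). The list drawn up for cell cycle exit also held cyclins, and its 1 gene of 10 with values was Ccnd2, cyclin D2. Ccnd2 averaged 24.5 and 28.3 FPKM (0.20, limma, adjusted p = 0.228), and as a cyclin it is not a marker of exit. These are single genes, and they do not measure how many cells were dividing.

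For each histone gene the 3 genes of most like pattern were sought among 349 named genes by the root mean square difference of centred log2(FPKM + 1) over the 6 libraries. For H1f0 they were Mir22hg (0.025), Dchs2 (0.058) and Snhg12 (0.059), where H1f0 itself varied by 0.202 around its mean. Mir22hg averaged 30.8 ± 1.17 FPKM in control and 22.7 ± 0.766 in OI (SD, n = 3), which is -0.42 on the log2 scale (limma, adjusted p = 0.0302). Since Mir22hg was picked for a pattern like that of H1f0, its fold change and p-value follow from that choice and are no separate support. For Hist1h2al they were Mir3082, Mrpl33 and Galnt4 (0.053 to 0.087), for Hist1h2bl Nbdy, Gon7 and Zfp963 (0.052 to 0.072), for Hist1h3d Mir6975, Tepp and Hist1h2bn (0.113 to 0.157), and for Hist2h2bb Pakap, Rbm4 and Igip (0.086 to 0.157). For Hist2h3c1 no gene came close: Zfp966 differed by 0.592, Nudt8 by 0.911 and Zfp882 by 0.931, where Hist2h3c1 varied by 1.20.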

How the data were processed

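Per the labels' protocols, libraries came from total RNA and a TruSeq RNA kit. The submitters' processing notes name cutadapt 2.7, HISAT2 2.1.0, StringTie 1.3.3b and the build mm10. The authors deposited FPKM values, 1 table per sample, with gene positions and lengths. The 1 row with a broken annotation was left out.

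Genes with FPKM of 1 or more in at least 3 of 6 libraries (1737) were tested on log2(FPKM + 1) with limma 3.58.1 (R 4.3.3). The fit used trend=TRUE and no replicate block. Tests were two-sided, and p-values were Benjamini-Hochberg adjusted across these genes at 0.05. The fit was tested on simulated data. Ratios to H1f0 used an exact permutation test over libraries. The histone genes and the gene lists were chosen with earlier results of these data known. Named genes were the 6 histone genes, list genes that passed the filter, the 3 genes of most like pattern each (predicted models left out), and genes that overlap, neighbour or nearly match a histone gene.

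Library sizes were recovered from the value of 1 read: 99.1% to 99.3% of the values of genes of 1 exon block were whole within 0.05, and histone read numbers were within 0.006 of whole. Values of genes that share bases cannot be assigned further. Exact Poisson intervals are at 95%. Overlaps and sequences came from GENCODE M21 and gene spans from RefSeq (GRCm38.p6); near copies were found with BLAST+ 2.17.0 (E-value at most 1e-10). Alternatives were other pseudocounts, filters, scalings and limma settings, a replicate block, voom on recovered reads and leaving out each library. Other steps used SciPy 1.17.1, pandas 2.3.3 and Matplotlib 3.10.9 under Python 3.11.15.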

Additional observations from a re-analysis of the deposited data

How the results depend on the processing

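H1f0 stayed lower with OI under all 17 alternatives, between -0.40 and -0.18 on the log2 scale without omissions and between -0.42 and -0.38 when 1 library was left out. The number of histone genes called fell from 1 to 0 with no filter (H1f0 adjusted p = 0.166, over 10948 genes), median-of-ratios scaling (0.237), quantile normalization (0.457), trend=FALSE (0.0587) and the replicate block (0.153), and it was 0 without any 1 library. It stayed at 1 with pseudocounts of 0.1 and 5, a filter at 5 FPKM, robust=TRUE, array weights and voom (H1f0 adjusted p = 0.00700 to 0.0367 over these). The count over all genes went from 48 to 14 with no filter, 17 with the replicate block and 15 to 27 with 1 library left out, and was 34 to 62 otherwise.

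Same-numbered control and OI libraries deviated together weakly (correlations 0.05, 0.14 and -0.08), so the numbers were not taken to pair them. With the paired permutation the smallest p is 0.25, and no ratio could pass.

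Directions reversed in 4 cases when 1 library was left out: Hist1h2bl without OI replicate 1 (-0.048; range -0.048 to 0.14), Hist1h3d without OI replicate 2 (-0.12; range -0.12 to 0.23), Hist2h3c1 without control replicate 1 (-0.19; range -0.19 to 1.49), and the H1f0 to Hist2h2bb ratio without control replicate 3 (0.081; range -0.37 to 0.081). The cause was not tested. Hist1h3d had no value with the filter at 5 FPKM. Low read numbers limit Hist1h2bl and Hist2h2bb, at 56 to 94 and 59 to 92 reads per library.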
